A study of Homo sapiens with 16 samples.

Results

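AURKA encodes Aurora A, a serine/threonine kinase that accumulates before mitosis, works at centrosomes and spindle poles, and is removed as cells leave mitosis. Its members in this study were found by name and by position. Both short-read tables held 13 transcript rows under the gene name AURKA, of 251295 transcript rows of 61906 genes. The 4 full-length cDNA (IsoSeq) files held 67 transcript models of the AURKA locus, of 299816 models in all, on the minus strand of chromosome 20. Positions are those of the files (GRCh38.p13, per the submitters' processing notes).

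The cells were of 2 established human lines, HT-1080 from a fibrosarcoma and HEK-293T from embryonic kidney, the latter with the large T antigen of SV40. An siRNA at 20 nM was given to each line, either siHNRNPH1, against the splicing regulator HNRNPH1, or siNegative, its control. RNA was taken 48 h later. Each of the 4 groups (HEK-293T siNegative, HEK-293T siHNRNPH1, HT-1080 siNegative and HT-1080 siHNRNPH1) had 3 short-read libraries from biological replicates and 1 IsoSeq pool of the replicates. The study's title names the organization of the AURKA 5' untranslated region among the events that HNRNPH1 regulates. Depletion was transient, and only RNA was measured.

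The 5' untranslated region of a messenger RNA lies before its start codon and is read by the scanning ribosome without being translated. A gene can vary it by starting at different sites, by using different splice donors in its first exon, or by skipping exons, and the protein can stay the same. HNRNPH1 belongs to the hnRNP H/F family, whose members bind runs of guanines near splice sites and change which exon or splice site is used.

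In units of 1 M, total expected counts ran from 107.7 to 121.0 over the HEK-293T libraries, and those of HT-1080 ran from 27.3 to 32.7. Replicate 1 of HEK-293T siHNRNPH1 stood apart from the other 2 libraries of its group: over 19966 genes its log2 CPM (a count scaled by its library's total) had Pearson r of 0.965 and 0.962 with them. Replicates 2 and 3 reached 0.999 with each other. Pairs of HT-1080 libraries of 1 group reached 0.996 to 0.998, lowest (0.996) for siNegative replicate 2 with replicates 1 and 3. Because replicate 1 of HEK-293T siHNRNPH1 stood apart, the main short-read tests of level and usage in HEK-293T are given with and without it. The IsoSeq pool of that group was made of the replicates, so replicate 1 could not be left out of its models. HNRNPH1 itself stood at 1107, 1105 and 1121 CPM in HEK-293T siNegative and at 234, 376 and 394 CPM in siHNRNPH1. The HT-1080 values were 635, 606 and 617 CPM against 231.5, 231.0 and 228.5 CPM. Of the HEK-293T markers, NEFM and INA were at 252 to 490 and 18.4 to 35.5 CPM in that line and at most 0.037 CPM in HT-1080, and SALL2 was listed at 0 in every HT-1080 library. LIN28B was at 65.7 to 203 CPM against 17.7 to 26.1 CPM, NEFL was at 65.8 to 112 CPM in HEK-293T and at 79.9 to 111 CPM in HT-1080, and PAX2 was under 2.3 CPM in both. The HT-1080 markers CD44, CAV1, AXL, LOX, PLAU and TGFBI were all higher in every HT-1080 library than in any HEK-293T library.

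The IsoSeq models showed how AURKA transcripts were built at their 5' ends. The files give exon positions without read counts, so a model counts once whatever its abundance. HEK-293T siNegative had 14 AURKA models, HEK-293T siHNRNPH1 16, HT-1080 siNegative 23 and HT-1080 siHNRNPH1 14. The whole files held 64705, 94847, 72186 and 68078 models in that order, and how far the number of models found follows sequencing depth was not tested.

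Most differences in internal exons lay upstream of 1 exon. The most 5' splice acceptor shared by the models belonged to a 47-base exon at 56388156 to 56388202, which 66 of 67 models carried. The remaining model, in HT-1080 siNegative, began downstream of it, at 56386298, and is counted as 5' incomplete. From that exon to the 3' end, 64 of the 66 models had the same exons: 277 bases (56386257 to 56386533), 55 bases, 192 bases, 139 bases, 149 bases, 175 bases and a last exon. The other 2, one in each HEK-293T pool, kept the intron between the 149-base and 175-base exons and so held a single exon of 3072 bases (56370485 to 56373556).

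Upstream of the 47-base exon, 3 kinds of first exon and 2 optional exons were combined. The first exon began between 56392193 and 56392250 in most models and ended at 1 of 3 donors. The short form ran down to 56392168 (24 models), the intermediate form continued 14 bases further to 56392154 (18 models), and the long form continued 225 bases beyond the short one to 56391943 (24 models). Of the optional exons, the outer one, nearer the first exon, spanned 110 bases (56390556 to 56390665) and was in 36 models. The inner one spanned 98 bases (56388687 to 56388784) and was in 23 models. Every one of the 12 possible combinations of a first exon with neither, one or both of these exons was found in at least 1 pool. The other 3 models, all from HT-1080 siNegative, had lengthened internal exons: 2 had an exon of 473 bases (56388312 to 56388784) and the outer exon, and 1 had exons of 117 bases (56388668 to 56388784) and 128 bases (56390538 to 56390665). The sequence upstream of the 47-base exon ranged from 41 to 635 bases. Where the start codon lies was not analysed here.

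**Figure D1:**
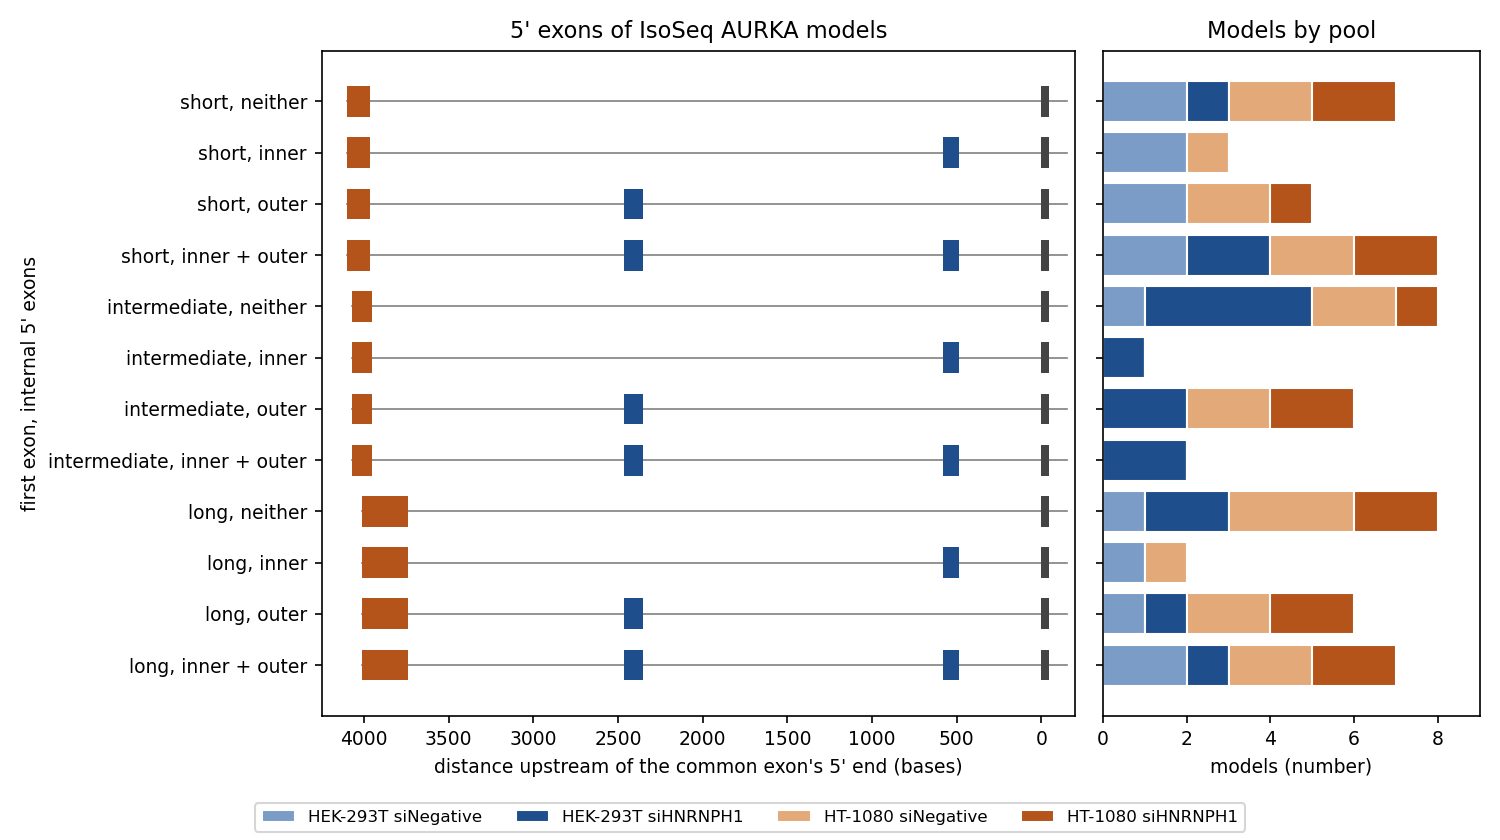
Left: exons (boxes, to scale) of the 12 combinations of first exon (orange, drawn to the longest 5' end of its class) and optional exons (blue), by distance in bases upstream of the 5' end of the 47-base common exon (dark grey, at 0). Right: number of models of each combination, stacked by pool. The combinations with the intermediate first exon and the inner exon, alone or with the outer exon, occurred in HEK-293T siHNRNPH1 and in no other pool.

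In HEK-293T, the pools differed most in the first exon. The intermediate form was in 1 of 14 siNegative models (7.14%, exact Clopper-Pearson 95% interval 0.181 to 33.9%) and in 9 of 16 siHNRNPH1 models (56.3%, 29.9 to 80.2%). The short form went the other way, from 8 of 14 (57.1%, 28.9 to 82.3%) to 3 of 16 (18.8%, 4.05 to 45.6%). The long form was in 5 of 14 (35.7%, 12.8 to 64.9%) and 4 of 16 (25.0%, 7.27 to 52.4%). All of these intervals overlapped between the pools. Counted as distinct intron chains instead of models, the intermediate form was in 1 of 10 siNegative and 5 of 10 siHNRNPH1 chains. With 1 pool per group there was no test. The intervals treat each model as an independent draw, but the 14 siNegative models held only 10 intron chains, and models are not molecules. They thus describe how few models there were and do not measure the spread between replicates.

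In HT-1080 the shares of the pools lay close together. The intermediate form was in 5 of 22 siNegative models (22.7%, 7.82 to 45.4%) and 3 of 14 siHNRNPH1 models (21.4%, 4.66 to 50.8%). The short form was in 8 of 22 (36.4%, 17.2 to 59.3%) and 5 of 14 (35.7%, 12.8 to 64.9%), and the long form in 9 of 22 (40.9%, 20.7 to 63.6%) and 6 of 14 (42.9%, 17.7 to 71.1%). The direction seen for the intermediate form in HEK-293T was not seen in HT-1080. Whether the lines differ in this was not tested.

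**Figure D2:**
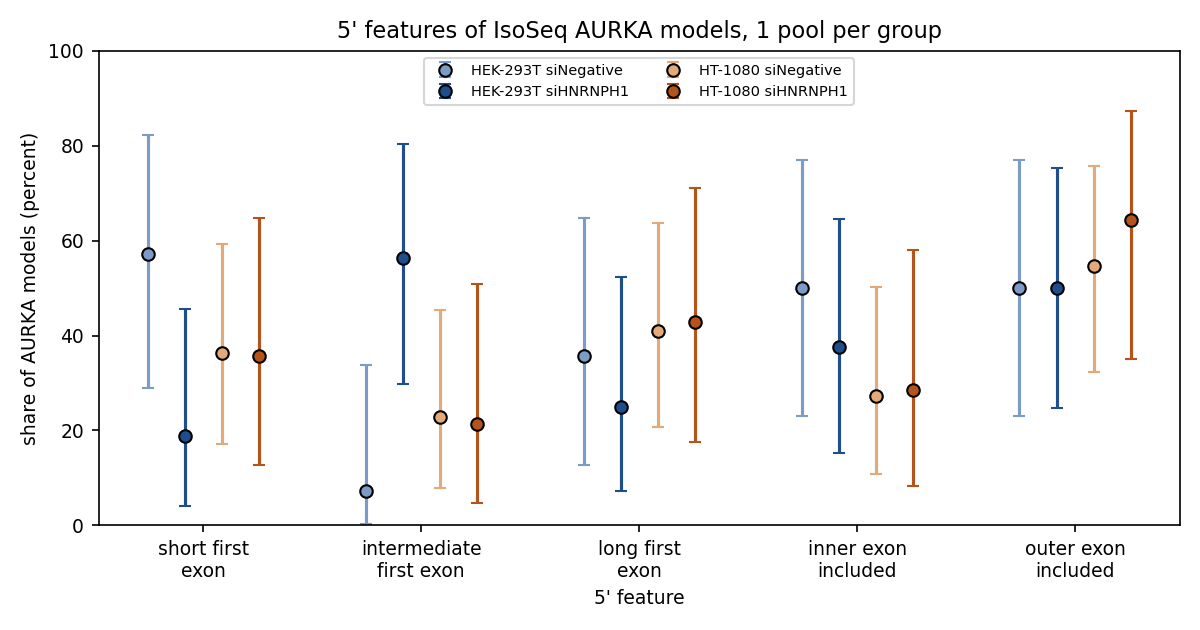
Share of AURKA models (percent) with each first exon or optional exon in the 4 IsoSeq pools. Points are shares and bars are exact Clopper-Pearson 95% intervals over 14, 16, 22 and 14 models, which treat models as independent draws. The intermediate first exon was in 7.14% and 56.3% of models of the HEK-293T pools, with intervals that overlapped.

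The optional exons were spread over all pools. The outer exon was in 7 of 14 HEK-293T siNegative, 8 of 16 HEK-293T siHNRNPH1, 12 of 22 HT-1080 siNegative and 9 of 14 HT-1080 siHNRNPH1 models. The inner exon was in 7 of 14, 6 of 16, 6 of 22 and 4 of 14 models in the same order. The inner exon without the outer one was in 3 of 14 and 2 of 22 siNegative models, against 1 of 16 and 0 of 14 siHNRNPH1 models. For the latter, the exact interval reached 23.2%. Both exons were skipped in 4 of 14, 7 of 16, 7 of 22 and 5 of 14 models, and every interval of these shares overlapped those of the other pools.

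The 5' ends themselves varied too. In both siNegative pools no AURKA model began upstream of 56392215. In each siHNRNPH1 pool 2 models did, at 56392274 and further upstream in HEK-293T and at 56392249 and 56392250 in HT-1080. This limit was set after the positions were seen, at the highest end among control models. The count of 0 among 14 and 22 control models was thus fixed by the limit, and whether the groups differ here was not tested. The neighbour on the plus strand, CSTF1, a subunit of the cleavage stimulation factor, is head to head with AURKA in the RefSeq table (GRCh38.p14, used for gene order only). Plus-strand models began at 56392358 or higher, and at least 54 bases lay between them and the highest AURKA 5' end of any pool. At the other end, 42 of 67 models ended at 56369391 or 1 base beyond it, and 25 ended earlier, at 56369660 to 56369668. The shorter 3' end was in 4 of 14 HEK-293T siNegative, 6 of 16 HEK-293T siHNRNPH1, 9 of 22 HT-1080 siNegative and 6 of 14 HT-1080 siHNRNPH1 models with a full 5' end.

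Short reads gave the level of the gene. AURKA fell in HT-1080 after depletion to 36.4% of its control level, and in HEK-293T it stood at 84.3% of control. The 3 siNegative libraries of HT-1080 were at 139, 142 and 134 CPM, and the siHNRNPH1 libraries were at 51.4, 51.1 and 48.6 CPM. All siHNRNPH1 libraries were far below all control libraries. The log2 fold change was -1.53 (standard error 0.049, adjusted p = 1.1e-08, edgeR's quasi-likelihood test with Benjamini-Hochberg adjustment over 16145 genes, 3 libraries per group). Many genes were called in this comparison: 65.3% of all tested, 32.7% higher and 32.6% lower. Only 2.99% of genes had a lower log2 fold change than AURKA. In these bulk libraries, fewer cells that express a gene and less of its RNA per cell cannot be told apart.

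The change in HEK-293T was small. AURKA was at 112, 114 and 110 CPM in siNegative and at 89.1, 96.0 and 98.0 CPM in siHNRNPH1. The groups did not overlap, and the lowest library was replicate 1, the one that stood apart. The log2 fold change was -0.27 (standard error 0.107, adjusted p = 0.172 in edgeR), which did not pass, in a comparison where 10% of 19966 genes were called, 5.12% higher and 4.88% lower. Without replicate 1 the value was almost the same, -0.26 (standard error 0.032), and passed with an adjusted p of 2.05e-07 in edgeR. Calls over all genes then stood at 61.8%, 30.5% higher and 31.3% lower, and 28.2% of genes had a lower value than AURKA.

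AURKA responded differently in the 2 lines. A cell line by siRNA interaction over all 12 libraries gave -1.33 (HT-1080 minus HEK-293T, log2; adjusted p = 2.18e-05 in edgeR), and -1.31 (adjusted p = 5.19e-11) without replicate 1. Of all genes, 19% were called there, 8.13% higher and 10.8% lower. HNRNPH1 itself fell in both lines (log2 fold change -1.76 in HEK-293T, -1.58 without replicate 1, and -1.49 in HT-1080), with no difference called between the lines (0.20, adjusted p = 0.506 in edgeR). Ordered by mean CPM, AURKA was highest in HT-1080 siNegative (138 ± 4.45, SD, n = 3), then HEK-293T siNegative (112 ± 2.02), HEK-293T siHNRNPH1 (94.3 ± 4.66) and HT-1080 siHNRNPH1 (50.4 ± 1.54). No 2 neighbours in this order overlapped in any library. The HT-1080 libraries were the shallower ones, and the tables of the lines were deposited separately.

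**Figure D3:**
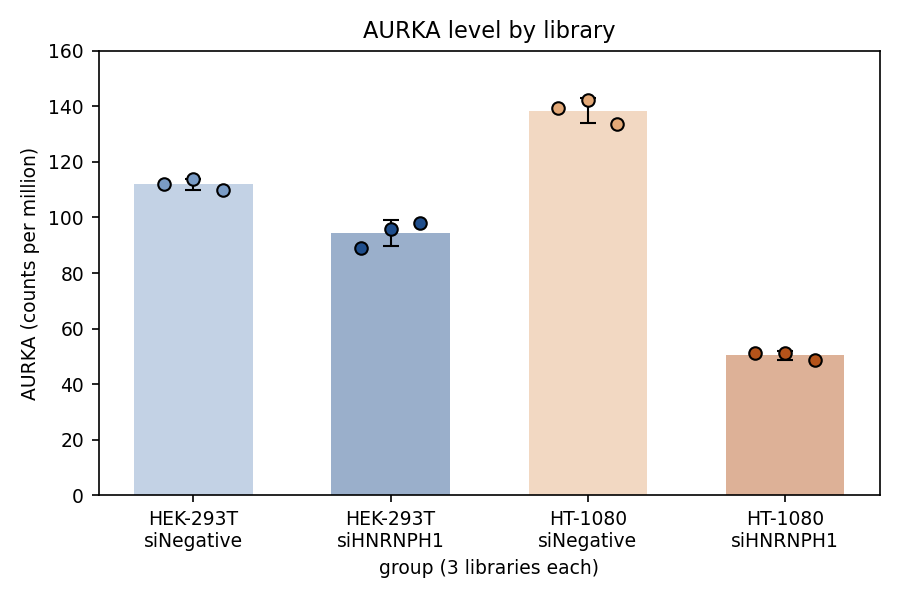
AURKA in CPM in each of the 12 short-read libraries (points), with the mean (bar) and SD (whisker) of each group of 3. The HT-1080 siHNRNPH1 libraries lie between 48.6 and 51.4, below every other library, and the HEK-293T groups lie close together without overlapping.

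The AURKA count was then divided among the 13 transcript rows. RSEM, the program that made the table, splits reads shared by several variants by estimation, and these rows overlap over most of their length, so a row's value carries an error that the files do not give. The share is a share of the expected count, not of molecules, since a longer variant gives more reads. No exon positions of these rows were used here, so they are not assigned to the 5' forms of the IsoSeq models.

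One row, ENST00000395915.8, held the largest share in every library. It took 53.6, 54.9 and 54.9% of the AURKA count in HEK-293T siNegative and 57.4, 44.6 and 49.6% in siHNRNPH1. In HT-1080 it took 44.1, 47.0 and 39.8%, against 41.6, 35.4 and 45.9%. The groups overlapped in both lines (exact permutation p = 0.4 and 0.6, two-sided, n = 3 per group). The smallest p this design allows is 0.1, so no share could pass on its own, and over the 24 tests of both lines the smallest adjusted p was 0.40.

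ENST00000395913.7 ranked 2 by mean share in both HEK-293T groups and in HT-1080 siHNRNPH1, and 3 in HT-1080 siNegative. Its share was higher in every siHNRNPH1 library than in any control of its line. Its control shares were 15.3, 12.1 and 11.6% in HEK-293T and 12.6, 10.1 and 11.4% in HT-1080. After depletion they were 16.1, 24.1 and 22.1%, and 15.04, 19.9 and 15.9%. The differences were 7.79 and 5.57 percentage points, each at the smallest possible exact permutation p of 0.1 (n = 3 per group). In HEK-293T its level was 17.1, 13.8 and 12.7 CPM against 14.4, 23.1 and 21.7 CPM, which overlapped. In HT-1080 its level fell from 17.6, 14.4 and 15.3 CPM to 7.73, 10.2 and 7.73 CPM. That log2 fold change was -0.90 (standard error 0.154, adjusted p = 0.0132 in edgeR), beside -1.53 for the whole gene, and the difference between these was not tested on this scale.

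ENST00000371356.6 was near 0 in most siHNRNPH1 libraries. In controls it held 5.51, 6.53 and 7.38% of the count in HEK-293T and 7.13, 4.09 and 2.58% in HT-1080. After depletion it held 0.581%, 0 (as listed) and 0.011% in HT-1080, with no overlap between the groups (exact permutation p = 0.1, the smallest possible). In HEK-293T siHNRNPH1 it held 6.32% in replicate 1, 0.971% in replicate 2 and was listed at 0 in replicate 3. Replicate 1 was within the control range and the other 2 were below it. The fitted log2 fold change was -5.95 in HT-1080 (standard error 1.25, adjusted p = 0.0274 in edgeR) and -1.60 in HEK-293T (standard error 1.68, adjusted p = 0.74 in edgeR), or -3.99 without replicate 1 (adjusted p = 0.132). With values this near 0 after depletion, the size of the fold is imprecise.

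**Figure D4:**
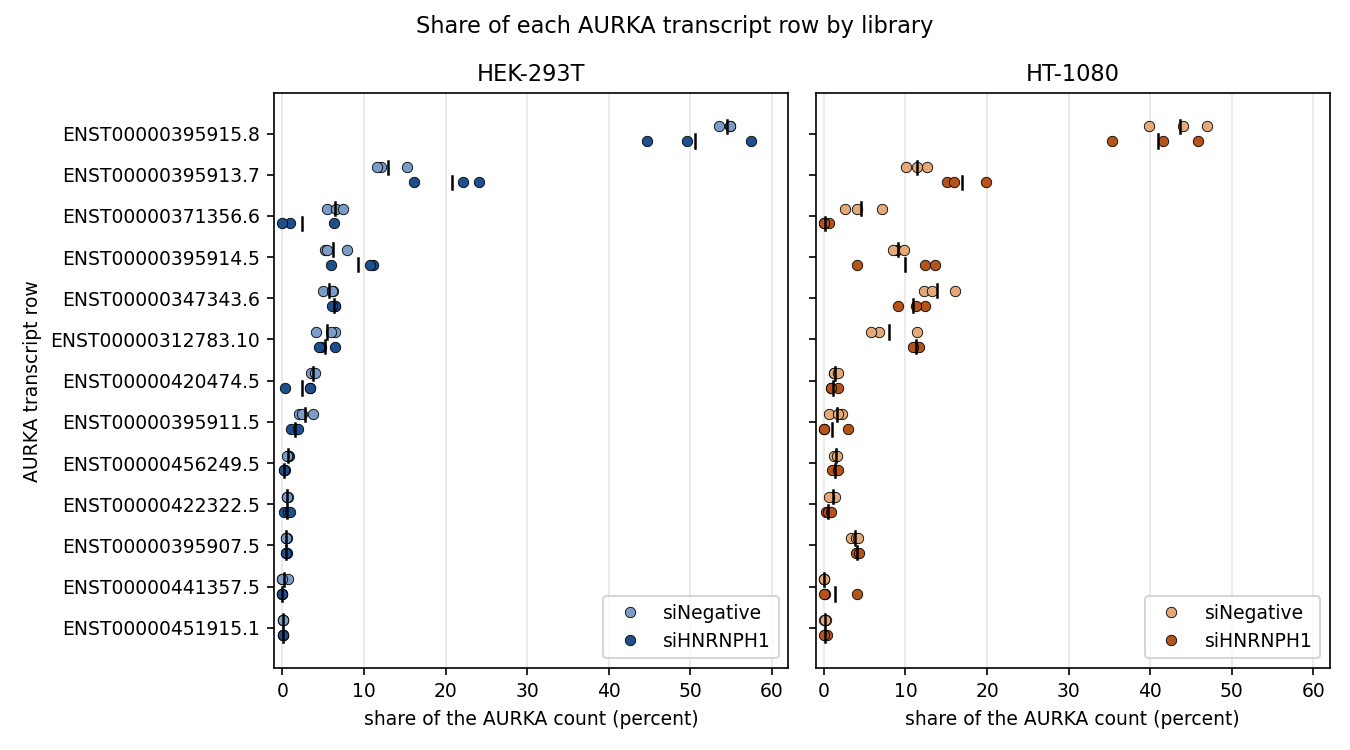
Share of the AURKA count (percent) held by each of the 13 transcript rows in every library of HEK-293T (left) and HT-1080 (right); light points are siNegative, dark points siHNRNPH1, and ticks are means of 3. ENST00000395915.8 is the largest in all 12 libraries, ENST00000395913.7 is higher after depletion in both lines, and ENST00000371356.6 lies near 0 in all siHNRNPH1 libraries but HEK-293T replicate 1.

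The shares of the rows of middle size overlapped between the groups of a line. ENST00000347343.6 held 5.03 to 6.47% in HEK-293T, 12.3 to 16.0% in HT-1080 siNegative and 9.12 to 12.4% in HT-1080 siHNRNPH1. ENST00000312783.10 held 4.14 to 6.45% in HEK-293T, and 5.77 to 11.4% against 10.9 to 11.7% in the HT-1080 groups. ENST00000395914.5 held 5.27 to 7.98% against 6.02 to 11.1% in HEK-293T, and 8.50 to 9.82% against 4.08 to 13.6% in HT-1080. ENST00000395907.5 was at 3.34 to 4.34% in HT-1080 and at most 0.58% in HEK-293T.

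Where the shares of a small row did not overlap between the HEK-293T groups, the exact permutation p was 0.1, the smallest possible. No adjusted p of a share was below 0.40. How many of all transcripts separate in this way was not counted, so whether AURKA rows do so more often cannot be told. ENST00000456249.5 went from 0.815, 0.728 and 0.633% to 0.185, 0.362 and 0.236%, with no overlap. In HT-1080 it was at 1.26 to 1.66% and 0.951 to 1.68%. ENST00000395911.5 went from 2.06, 3.72 and 2.41% to 1.64, 1.02 and 1.92% in HEK-293T, again without overlap, and in HT-1080 it was listed at 0 in 2 siHNRNPH1 libraries and at 2.90% in replicate 2. ENST00000420474.5 was at 3.46 to 3.99% in HEK-293T siNegative, at 3.45 and 3.33% in siHNRNPH1 replicates 2 and 3, and at 0.359% in replicate 1. Its groups were thus barely apart, and the low value was in the library that stood apart. ENST00000422322.5 stayed under 1.4% in every library. ENST00000441357.5 and ENST00000451915.1 did not pass the filter on low counts in either line. The former was listed at 0 in 9 of 12 libraries, and the latter never exceeded 0.35%. ENST00000441357.5 reached 4.08% in replicate 3 of HT-1080 siHNRNPH1. There its expected count of 56.48 was almost that of ENST00000395914.5 (56.47), whose share was the lowest of its group in that library. Whether RSEM split the same reads between these rows was not tested.

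Tested row by row on the level, 8 of the 11 AURKA rows that passed the filter fell in HT-1080 and none rose, where 16.1% of 64605 transcripts were called, 7.91% higher and 8.18% lower. These were ENST00000395915.8 (log2 fold change -1.58, adjusted p = 0.000875 in edgeR), ENST00000347343.6 (-1.81, 0.00116), ENST00000395907.5 (-1.39, 0.00398), ENST00000395913.7, ENST00000456249.5 (-1.64, 0.0167), ENST00000371356.6, ENST00000422322.5 (-2.45, 0.0325) and ENST00000420474.5 (-1.72, 0.036). Each of the 3 others also had a negative value. Without 1 HT-1080 library at a time, 4 to 6 rows passed. It was 4 without replicate 1 of either group, and 5 without replicate 3 of either.

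In HEK-293T, 0 of 11 rows passed in edgeR, where 0.248% of 89488 transcripts were called. In edgeR, 2 rows had an unadjusted p below 0.05 (quasi-likelihood test, no adjustment). They were ENST00000456249.5 (log2 fold change -1.70, adjusted p = 0.142) and ENST00000395911.5 (-1.07, adjusted p = 0.307). Without replicate 1, 16% of transcripts were called, and 2 of 12 AURKA rows fell: ENST00000395915.8 (-0.46, adjusted p = 0.0143 in edgeR) and ENST00000456249.5 (-1.53, adjusted p = 0.0343).

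Usage, the share of each row against the gene's other rows, was tested with limma diffSplice over all genes with several rows. In HEK-293T AURKA passed (adjusted p = 0.00361), as did 9.59% of 13018 genes, and the row behind it was ENST00000371356.6, with a log2 usage of -4.43 relative to the other rows (adjusted p = 0.00179 in limma). Without replicate 1 the gene's adjusted p was 1.81e-05, with 41.6% of genes called. Then 5 rows passed: ENST00000395913.7 (0.91) and ENST00000395914.5 (0.80) were higher relative to the other rows, and ENST00000395915.8 (-0.59), ENST00000395911.5 (-1.07) and ENST00000371356.6 (-6.32) lower. The share of all transcript rows called in that test was not counted, so whether 5 exceeds a general share cannot be told. The call with all 6 libraries was lost with edgeR's diffSpliceDGE. It was also lost without siNegative replicate 2 (adjusted p = 0.0688 in limma), siNegative replicate 3 (0.0619) or siHNRNPH1 replicate 3 (0.209). With rows of at least 5% of the gene AURKA did not pass either, but ENST00000371356.6 lay under that limit over the 6 libraries. The row behind the call was thus left out in advance, and that alternative cannot test the call.

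In HT-1080 usage did not pass (adjusted p = 0.315 in limma diffSplice), where 21.2% of 10752 genes did. ENST00000371356.6 had a usage value of -5.63 there (adjusted p = 0.321) and ENST00000395913.7 one of 0.63 (adjusted p = 0.138), both of the sign seen in HEK-293T. diffSpliceDGE called AURKA in HT-1080 (adjusted p = 0.000952). The difference in usage effect between the lines was not called (adjusted p = 0.917 in limma, where 3.39% of 13703 genes were called, and 0.522 without replicate 1), which does not show that the lines act alike.

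The genes around AURKA's function were grouped by role, in lists chosen with earlier results of these data known. Of 38 genes in 5 lists, 37 were tested in HT-1080: 29 fell, 3 rose and 5 were not called, where 32.6% of all genes fell and 32.7% rose. Their median log2 fold change was -0.79 beside 0.01 over all genes. In HEK-293T 3 of 38 fell and none rose, where 4.88% and 5.12% of all genes did, with a median of -0.02 beside 0.02 over all genes. Without replicate 1, 20 fell and 11 rose, where 31.3% and 30.5% of all genes did, with a median of -0.09. By the interaction test, 20 of 38 were called more negative in HT-1080 and none more positive, where 10.8% and 8.13% of all genes were. Without replicate 1, 28 were more negative and 3 more positive. The share of all genes called in that fit was not counted, so whether this rise exceeds a general one cannot be told.

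Among activators and cofactors, TPX2, the spindle protein that binds Aurora A and holds it in its active form, fell in both lines. It was at 231, 235 and 226 CPM in HEK-293T siNegative and 140, 128 and 130 CPM in siHNRNPH1 (log2 fold change -0.82, adjusted p = 0.0159 in edgeR). In HT-1080 it went from 271, 269 and 280 CPM to 63.9, 62.9 and 54.8 CPM (-2.24, adjusted p = 6.39e-09). The HT-1080 change was the larger by the interaction (-1.50, adjusted p = 5.87e-05). BORA, the cofactor through which Aurora A activates PLK1, fell in HT-1080 from 16.77, 18.93 and 17.97 to 9.93, 11.0 and 10.5 CPM (-0.84). Also lower in HT-1080 were TACC3 (-0.97) and CKAP5 (-0.66), which build spindle microtubules with the kinase, and CEP192 (-0.52), which recruits it to centrosomes. PAK1 (-0.48) fell as well, and 6 of the 8 genes in this list fell in all, beside 32.6% of all genes. In HEK-293T without replicate 1, 3 of the 8 fell and 4 rose, beside 31.3% and 30.5% of all genes. NEDD9, a scaffold that can activate Aurora A, rose (1.21), from a level of under 0.2 CPM to under 0.46 CPM. AJUBA was at 119 to 128 and 135 to 141 CPM and did not pass (adjusted p = 0.108).

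Of the substrates and mitotic kinases, 6 of 7 fell in HT-1080, beside 32.6% of all genes. PLK1, the kinase that Aurora A phosphorylates, went from 179, 184 and 181 CPM to 55.7, 61.7 and 56.1 CPM (-1.72, adjusted p = 9.15e-09 in edgeR). CDK1 (-1.67) and its partner cyclin, CCNB1 (-1.58), fell to a like degree, as did CENPA (-1.70), the centromeric histone, and KIF11 (-1.53), the spindle motor. CDC25B, the phosphatase that activates CDK1, fell less (-0.87), and LATS2 rose (0.56). In HEK-293T with all 6 libraries only CENPA of these was called, lower, at -0.56 (adjusted p = 0.0425 in edgeR). Without replicate 1, 31.3% of all genes fell and 30.5% rose in that line. Of the 7, 4 fell, PLK1 among them (-0.20, adjusted p = 5.94e-06), and 2 rose, CCNB1 (0.089, adjusted p = 0.0117) and LATS2 (0.25). PLK1 was at 160, 163 and 156 CPM there in controls and 186, 148 and 141 CPM after depletion, with replicate 1 the one library above the controls.

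Of the genes of turnover and dephosphorylation, 5 of 7 tested fell in HT-1080, beside 32.6% of all genes, and 2 were not called. In HEK-293T 0 of 8 were called in edgeR with all 6 libraries, beside 10% of all genes. Without replicate 1, 4 of the 8 fell in HEK-293T, CDC20 among them (-0.32, adjusted p = 5.55e-09), and 2 rose, CDC27 (0.60) and PPP6C (0.24). Of all genes, 31.3% fell and 30.5% rose in that comparison. CDC20, which directs the anaphase-promoting complex early in mitotic exit, fell from 244, 271 and 245 CPM to 63.4, 66.9 and 64.4 CPM in HT-1080 (-2.03). FZR1, the adaptor through which that complex removes Aurora A, fell by only 0.29 on the log2 scale. PTTG1, securin, fell by 1.56. AURKAIP1 fell by 0.46 and FBXW7, a ubiquitin ligase subunit, by 0.28. CDC27 (0.12) and PPP6C (0.01), the catalytic subunit of the phosphatase that acts on Aurora A, were not called. USP2 did not pass the filter in HT-1080.

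AURKB, the paralog that works in the chromosomal passenger complex, was at 67.6, 79.8 and 64.0 CPM in HT-1080 siNegative and at 17.2, 17.8 and 16.5 CPM in siHNRNPH1 (-2.10, adjusted p = 6.05e-08 in edgeR). Its partners CDCA8 (-1.93), BIRC5 (-0.93) and INCENP (-0.75) fell too, so that 4 of the 5 genes of this list fell, beside 32.6% of all genes. In HEK-293T 1 of the 5 fell, and 3 did without replicate 1, among them AURKB (-0.27) and CDCA8 (-0.09). Of all genes there, 4.88% fell with all 6 libraries and 31.3% without replicate 1. AURKC, a paralog best known from germ cells, was under 0.6 CPM everywhere, fell in HEK-293T (-1.11, adjusted p = 0.0227) and was not called in HT-1080 (0.08).

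Of 10 genes tied to transcription of AURKA and other late cell cycle genes, 8 fell in HT-1080 and 1 rose, beside 32.6% and 32.7% of all genes. E2F1 fell most, from 33.9, 39.0 and 35.0 CPM to 6.13, 6.49 and 5.48 CPM (-2.64, adjusted p = 1.37e-08 in edgeR). MYBL2 (-1.98) and FOXM1 (-1.44), which act with the MuvB complex on G2/M genes, fell, as did the complex's members LIN9 (-1.26), LIN54 (-0.79) and LIN52 (-0.72). E2F4 fell by 0.46 and E2F3 by 0.20. LIN37, also a member of the MuvB complex, rose (0.67), and GABPA did not pass (0.15, adjusted p = 0.0645). In HEK-293T with all 6 libraries none of the 10 was called in edgeR, where the adjusted p ranged from 0.0569 for LIN52 to 0.975 for LIN9. Without replicate 1, 31.3% of all genes fell and 30.5% rose there. Of the 10, 6 fell, including E2F1 (-0.31), FOXM1 (-0.33) and MYBL2 (-0.50), and 3 rose, LIN9 (0.23), LIN37 (0.23) and LIN54 (0.60). Whether these changes bear on that of AURKA was not tested.

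**Figure D5:**
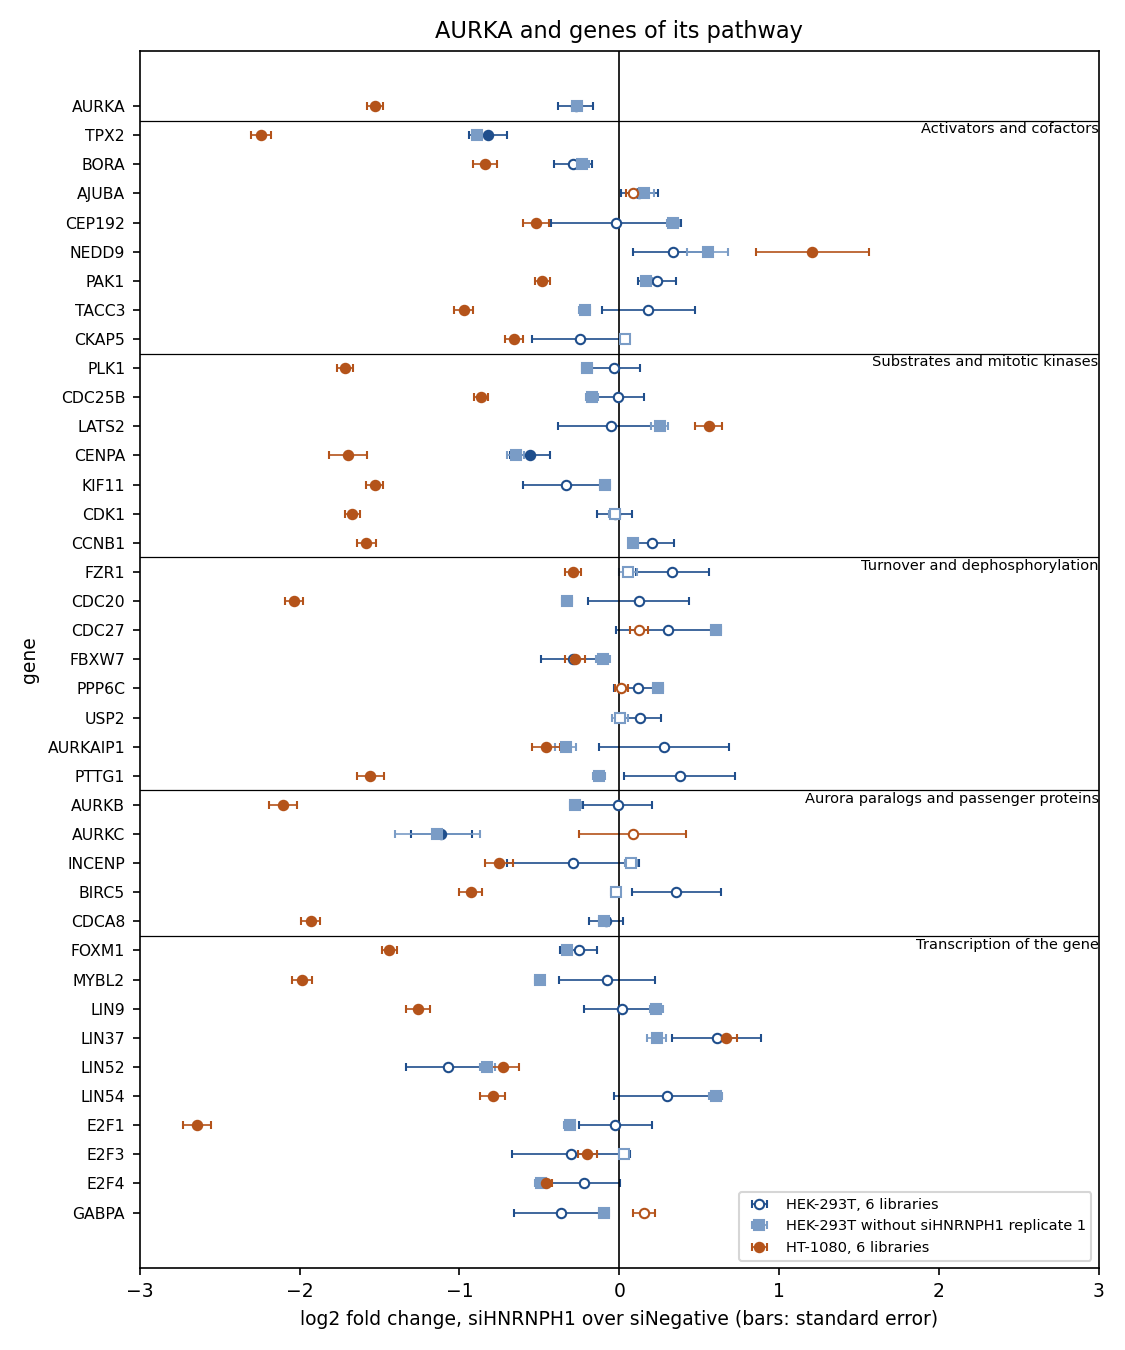
Log2 fold change (siHNRNPH1 over siNegative, with its standard error) of AURKA and 38 genes grouped by role, in HEK-293T with 6 libraries, in HEK-293T without siHNRNPH1 replicate 1, and in HT-1080. Filled symbols passed the adjusted threshold. HT-1080 values of TPX2, E2F1, AURKB and CDC20 lie below -2, and the called values of LATS2, LIN37 and NEDD9 lie above 0.

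Of the genes beside AURKA on the chromosome, none fell in either line with all 6 libraries. CSTF1 was at 51.5, 50.3 and 52.5 CPM in HEK-293T siNegative and 64.4, 59.1 and 60.4 CPM in siHNRNPH1 (0.23, adjusted p = 0.282 in edgeR). Without replicate 1 it was called higher (0.16, adjusted p = 0.000554). Its HT-1080 values of 39.3, 42.0 and 40.6 against 41.4, 37.6 and 38.6 CPM overlapped (-0.12, adjusted p = 0.087). FAM210B rose in HT-1080 from 19.3, 18.6 and 19.0 CPM to 46.6, 46.7 and 46.8 CPM (1.23, adjusted p = 3.66e-08) and in HEK-293T was at 54.7 to 56.8 and 46.9 to 48.6 CPM (-0.24, adjusted p = 0.213, and -0.26, adjusted p = 2.03e-06, without replicate 1). RTF2 rose slightly in HT-1080 (0.13, adjusted p = 0.0316). FAM209B rose in HEK-293T (3.17, adjusted p = 0.0239) at under 0.6 CPM. CASS4 and FAM209A were under 0.4 CPM, and GCNT7 was listed at 0 in all 12 libraries. The pseudogene AURKAP1, whose reads can resemble those of AURKA, had between 0 and 68.3 expected counts per library, and AURKAP2 was listed at 0 in all 12, against at least 1384 for AURKA.

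Across the 12 libraries, the 5 genes whose log2(CPM + 1) followed that of AURKA most closely, of 11747 compared, were PAK1IP1 (Pearson r 0.992), HNRNPA0 (0.991), MSMO1 (0.988), CBX3 (0.987) and FAM83D (0.985). The 12 points fall into 4 groups that share cell line and siRNA, so r describes the pattern of group means. MSMO1, an enzyme of cholesterol synthesis, had means of 91.3 and 83.7 CPM in HEK-293T and 132 and 43.9 CPM in HT-1080 (siNegative then siHNRNPH1 in each). FAM83D, a spindle protein, had 47.8, 46.4, 73.7 and 20.3 CPM in the same order. All 5 fell in HT-1080, by 0.54 for CBX3 to 1.93 for FAM83D on the log2 scale. None was called in HEK-293T in edgeR with all 6 libraries, with adjusted p from 0.259 to 0.739. These genes were picked by likeness to AURKA over the same 12 libraries, in which AURKA itself fell mainly in HT-1080. Their fall there and small change in HEK-293T thus follow from the choice and are not separate findings.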

How the data were processed

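For each transcript variant the authors deposited an expected count from RSEM (version not given in the sources used here), in 1 table per cell line, and IsoSeq transcript models as exon positions with no counts. The build was GRCh38.p13 per the submitters' processing notes. Aligner, annotation release and strandedness are not given in the sources used here. The members and all gene lists were chosen with earlier results of these data known. All value columns were matched to samples by name (0 unmatched).

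Expected counts were summed per gene, rounded, filtered with filterByExpr, scaled by TMM and tested with edgeR 4.0.16 (quasi-likelihood, robust, two-sided), in each line alone. Transcript rows were tested likewise, usage with limma 3.58.1 (voom, diffSplice, Simes p), and the lines were compared by an interaction over 12 libraries. P-values were Benjamini-Hochberg adjusted over all features, with a threshold of 0.05. Standard errors came from the quasi-likelihood F statistic. Shares of rows with a mean of at least 1% in any group were compared by exact permutation. IsoSeq 5' forms were defined upstream of the most 5' acceptor shared by at least 80% of spliced models spanning it. Named genes were AURKA, its rows, HNRNPH1, the listed genes and the 5 most alike by Pearson r of log2(CPM + 1) among genes with a mean of at least 50 counts in each group. Same-numbered replicates correlated at 0.0982 or less in their deviations, so numbers were not used to pair samples. Libraries of 1 group all differed beyond sampling noise (chi-square per degree of freedom at least 1.78). It was 811 and 847 for HEK-293T siHNRNPH1 replicate 1 with replicates 2 and 3. For HT-1080 siNegative replicate 2 with replicates 1 and 3 it was 17.8 and 17.4. P-values measure the spread between libraries. DESeq2 1.42.0 served as an alternative, and the steps were checked on simulated data.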

Additional observations from a re-analysis of the deposited data

Results flagged for a closer look

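The response to the siRNA was not the same in HEK-293T and HT-1080, by the interaction test in edgeR (HT-1080 minus HEK-293T, log2, adjusted p under the threshold), for AURKA and the 22 listed genes given here. AURKA differed by -1.33 (adjusted p = 2.18e-05). Among activators and cofactors the differences were -1.50 for TPX2, -0.62 for BORA, -0.79 for PAK1 and -1.24 for TACC3. Among substrates and mitotic kinases they were -1.76 for PLK1, -0.94 for CDC25B, -1.21 for CENPA, -1.26 for KIF11, -1.71 for CDK1 and -1.86 for CCNB1. CDC20 differed by -2.24 and PTTG1 by -2.02. AURKB differed by -2.18, BIRC5 by -1.37 and CDCA8 by -1.92. Of the transcription list, FOXM1 differed by -1.26, MYBL2 by -1.99, LIN9 by -1.34, LIN54 by -1.15 and E2F1 by -2.70. The neighbours CSTF1 and FAM210B differed by -0.42 (adjusted p = 0.0498) and 1.40. The lines also differed in depth, which cannot be told apart from the line.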

How the results depend on the processing

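AURKA's fall in HT-1080 and its difference between the lines kept sign and call under every alternative run: other size factors, library size alone, no filter, DESeq2, the replicate block and leaving out each library (-1.56 to -1.50 and -1.35 to -1.29). Library size alone moved the median of all genes in the interaction by 0.11. In HEK-293T, AURKA passed only without siHNRNPH1 replicate 1 (-0.29 to -0.26 over the 6 libraries left out). Replicate numbers were not used to pair the samples, and whether they mark pairs is not settled. Each of the 3 HEK-293T siNegative libraries correlated best with its own number, though weakly, and 1 of 3 did in HT-1080. With the replicate block the adjusted p was 0.392 for AURKA in HEK-293T and 0.00328 for the interaction. Usage in HEK-293T had an adjusted p of 0.546 with the replicate block, 0.291 with rows of at least 5%, 1.00 with diffSpliceDGE and 1.81e-05 to 0.209 over libraries left out. The limit of 5% left out ENST00000371356.6, the row behind the HEK-293T call, so the loss there followed from the limit. Usage in HT-1080 was called with diffSpliceDGE only (0.000952). AURKA rows called in HT-1080 numbered 3 with the replicate block, 5 without a filter and 4 to 6 over libraries left out, and in HEK-293T 0 to 2. Listed genes called in HEK-293T without replicate 1 were 11 higher and 20 lower, and with library size alone 6 were higher in HT-1080. CDC20 (-0.32) turned negative in HEK-293T without replicate 1, AURKB (0.0071) turned positive with library size alone, and the levels of ENST00000422322.5 (-0.60 to 0.17) and ENST00000395907.5 (0.013) changed sign with 1 library left out. Share differences that changed sign ranged from -5.14 to 0.12 points for ENST00000395915.8, -0.89 to 3.85 for ENST00000395914.5 and -0.34 to 0.029 for ENST00000456249.5 in HT-1080. In HEK-293T they ranged from -0.96 to 0.18 for ENST00000312783.10, -0.12 to 0.21 for ENST00000422322.5 and -0.013 to 0.073 for ENST00000395907.5. Among models that reach the distal 3' end, 0 of 10 HEK-293T siHNRNPH1 models had the inner exon alone, and the shares of the other 5' features stayed within their intervals under the alternatives run. Counted as distinct intron chains, which merge models that differ only in their ends, the first listed model stood for each chain. Models with the distal 3' end were listed first in every pool. The count of chains with the shorter 3' end (0 to 10.0%) therefore follows from the order of listing and cannot measure use of that end. Causes were not tested. Depth limits the rows near 0, and 14 to 23 models per pool limit every IsoSeq share.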
